A study of Mus musculus with 9 samples.

Results

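The libraries described here are the 6 whole-lung RNA libraries of an LPS/CSC exposure and its control, 3 labelled COPD and 3 labelled NC, out of 9 in the series. They were chosen by their group labels alone. All came from male C57BL/6N mice given vehicle (2% DMSO) by mouth once a day on days 1 to 14, with the lungs taken on day 15. COPD mice also received lipopolysaccharide (LPS, 0.5 mg/kg) together with CSC, a condensate of cigarette smoke (12.5 mg/kg), through the nose on days 1, 6 and 13, whereas NC mice received PBS through the nose. The other 3 libraries, from exposed mice given a plant extract, entered the same fit, where they took part in the filter on low counts, the scaling and the estimate of the spread, and are not described. The question was which genes, described by their function, differed in level between exposed and control lung.

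LPS is a glycolipid of the outer membrane of Gram-negative bacteria that is sensed by TLR4, and CSC is the trapped particulate matter of tobacco smoke. In lung, TLR4 signals through NF-kappaB to cytokines and chemokines and through IRF3 to type I interferon, and interferons act through STAT and IRF factors on a wide set of target genes. Chemokines draw neutrophils, monocytes and lymphocytes from the blood, while club cells of the airway and alveolar type 2 cells hold much of the lung's capacity to detoxify inhaled compounds. The COPD label names a short course of instillations and not long-term inhalation of smoke, and no group received LPS or CSC alone, so their contributions cannot be told apart. In whole lung, more cells of a type and more RNA per cell cannot be told apart either, and fewer cells and less RNA per cell likewise. The labels do not state that each library is a separate mouse, so the p-values measure the spread between these libraries, which may be partly technical.

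The deposited table holds 129299 transcripts in 45777 genes, of which 18716 passed the filter on low counts. The libraries held 25232402 to 33523425 counts in COPD and 25236827 to 42156219 in NC, and 7SL RNA took 32.5 to 41.0% of these in COPD and 34.0 to 40.4% in NC. Levels are given as CPM (counts scaled to library size with the TMM method), which are not divided by gene length and serve to compare a gene between libraries. Log2 fold changes are COPD over NC ± SE from the quasi-likelihood test of edgeR, with p adjusted by the Benjamini-Hochberg method over all 18716 genes. A gene is said to have risen or fallen where the adjusted p was under 0.05, and DEGs have an unadjusted p under 0.05 and differ by 1 or more on the log2 scale. These thresholds are those of the study, but they are put here on edgeR fold changes that were not shrunken, where the study used DESeq2 with shrinkage. Surfactant protein genes marked the tissue as lung in every library, with Sftpc at 1226, 884 and 597 CPM in COPD and 296, 974 and 879 CPM in NC. The heart muscle gene Myh6 was also present, at 65, 19.3 and 115 CPM in COPD and 177, 191 and 35.8 CPM in NC, and skeletal muscle Acta1 was at 0 in all 6.

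Both groups had a library that stood apart. NC replicate 1 had low levels of endothelial and alveolar genes, with Pecam1 at 40.6 CPM and Ager at 100.3 CPM, against 136 CPM and at least 391 CPM in the other NC libraries. The same library had a high level of airway genes such as Scgb3a1, at 874 CPM. Mitochondrial counts were 2.59 to 3.17% of the total in COPD, 10.3% in NC replicate 1 and 4.04% and 4.81% in the other NC libraries. COPD replicate 2 had the lowest level of the 3 COPD libraries for most genes that rose, yet lay above NC for the genes that rose. This did not hold for every higher DEG. Counts of DEGs in a list that moved by more than 1.5 times without either library are given with that value. Among the named DEGs, Aldh1a1 and Scgb1a1 were no longer DEGs with either library left out, and Cat, Chil3, Dnmt1, Myh11, Ppbp and Slc4a4 were no longer DEGs without NC replicate 1.

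In all, 287 genes rose (1.53% of those tested) and 12 fell (0.0641%), and the COPD and NC values of each of the 299 did not overlap. At the thresholds for DEGs, 1333 genes were higher (7.12%) and 438 were lower (2.34%). Non-overlapping values in the direction of higher COPD were found in 14.3% of all genes and of lower COPD in 10.4%, so a count of members is read against these shares. The calls sat close to the threshold, since 80 of the 299 had an adjusted p between 0.04 and 0.05. With COPD replicate 3, NC replicate 1 or NC replicate 2 left out, no gene passed the adjusted p of edgeR (2024, 2558 and 2849 genes with an unadjusted p under 0.05), and with COPD replicate 1 or NC replicate 3 left out 1 gene did. In each of these fits all 299 genes kept their direction and an unadjusted p under 0.05. Their non-overlapping values all but fixed the direction beforehand. The 299 were also chosen on these same libraries, so this is no independent support. Of the genes that rose, 273 were protein-coding and 169 belonged to a functional list, as did 9 of those that fell.

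Of the 29 genes of interferon signalling tested, 6 rose, among them transcription factors of the response. Irf7, the factor that amplifies type I interferon synthesis, was at 124, 63.98 and 143 CPM in the COPD lungs, against 4.39, 6.398 and 5.97 CPM in the NC lungs. Every COPD library was far above every NC library, and the log2 fold change was 4.31 ± 0.53 (adjusted p = 0.0235). Stat2, a factor of the type I interferon signal, was at 97.5, 120.3 and 114 CPM in COPD and 17.1, 33.1 and 34.8 CPM in NC, and Irf5, a factor downstream of Toll-like receptors, was at 50.3, 31.3 and 51.2 CPM in COPD and 8.65, 10.4 and 7.83 CPM in NC. For both genes the groups were well apart, with log2 fold changes of 1.97 ± 0.36 and 2.30 ± 0.43. The class I and class II transactivators of MHC genes, Nlrc5 and Ciita, rose by 2.87 and 2.41 on the log2 scale, with Nlrc5 at 193, 221 and 245 CPM in COPD and 12.8, 36.2 and 40.9 CPM in NC. Here COPD replicate 2 was not the lowest of its group. Irf1 (log2 fold change 2.11 ± 0.51), Irf9 (log2 fold change 1.39 ± 0.34) and Irf8 (log2 fold change 1.40 ± 0.36) were DEGs whose adjusted p lay above 0.05. In this list 16 genes were DEGs and the median log2 fold change was 1.13. The kinase Jak1 was at 154, 134 and 175 CPM in COPD and 97.5, 131 and 127 CPM in NC, and Stat3 was at 170.1, 128 and 176 CPM in COPD and 128, 113 and 100 CPM in NC, with overlap between the groups for Stat3.

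Of the 52 antiviral effectors tested, 13 rose. Oas3, an oligoadenylate synthetase that activates RNase L on sensing double-stranded RNA, was at 36.5, 17.8 and 48.9 CPM in the COPD lungs, against 0.768, 0.697 and 0.751 CPM in the NC lungs. NC libraries were within a narrow range and every COPD library was far above it, and the log2 fold change was 5.53 ± 0.74 (adjusted p = 0.0235). Zbp1, a sensor of Z-form nucleic acid that can start necroptosis, was at 51.5, 24.8 and 64.4 CPM in COPD and 1.47, 3.03 and 2.503 CPM in NC, and Dhx58, a regulator of RIG-I-like receptors, was at 24.96, 16.6 and 28.4 CPM in COPD and 3.73, 5.19 and 2.93 CPM in NC. Both rose, with log2 fold changes of 4.33 ± 0.68 and 2.56 ± 0.43. The related genes Oas2, Oasl1, Oasl2 and Oas1g rose by 3.15 to 3.66 on the log2 scale, although reads of the near-identical Oas1 copies, and those of Ifit3 and Ifit3b, may have been split between copies. Isg15, a ubiquitin-like modifier, was a DEG at 24.9, 15.1 and 33.6 CPM in COPD and 0.636, 0 and 2.25 CPM in NC, and Mx1 was a DEG at 21.6, 16.4 and 22.5 CPM in COPD and 1.71, 2.09 and 5.58 CPM in NC. In this list 43 genes were DEGs and 48 had every COPD library above every NC library. Their median log2 fold change was 1.94, and 1.70 without NC replicate 1, against −0.02 over all genes. Not every member moved alike, as Samd9l was at 101, 85.3 and 118 CPM in COPD and 88.1, 63.3 and 82.1 CPM in NC, with overlap.

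The interferon-inducible GTPases, which attack the vacuoles of intracellular microbes, had the highest list medians among the interferon groups. Gbp5, a guanylate-binding protein that promotes inflammasome assembly, was at 101, 45.8 and 113 CPM in the COPD lungs, against 2.06, 2.27 and 4.18 CPM in the NC lungs. Every COPD library was far above the NC range, and the log2 fold change was 4.94 ± 0.88 (adjusted p = 0.0337). Gbp2 had 352, 108 and 415 CPM in COPD and 8.71, 15.2 and 23.9 CPM in NC, and its adjusted p of 0.056 missed the threshold. COPD replicate 2 was far below the other COPD libraries for this gene. All 11 guanylate-binding protein genes tested were DEGs and 5 rose, with a median of 3.78. Among the immunity-related GTPases, Igtp was at 144, 72.8 and 162 CPM in COPD and 6.69, 9.34 and 11.8 CPM in NC and Irgm1, a regulator of this family, was at 164, 72.99 and 193 CPM in COPD and 13.1, 14.6 and 20.3 CPM in NC. Both rose, with log2 fold changes of 3.77 ± 0.63 and 3.17 ± 0.63. All 10 members tested were DEGs, 7 rose and the median was 3.64. Tgtp1 and Tgtp2 are close copies, as are several Gbp genes, so their separate values are uncertain. Of the DNA-binding p200 genes, Ifi204 rose (log2 fold change 4.47 ± 0.79) and 9 of 12 were DEGs (5 without NC replicate 1). Of the Schlafen genes, Slfn8 rose (log2 fold change 3.10 ± 0.62) and Slfn4 was a DEG at 70.4, 76.7 and 138 CPM in COPD and 0.285, 3.49 and 5.01 CPM in NC, with 7 DEGs among 8.

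**Figure D1:**
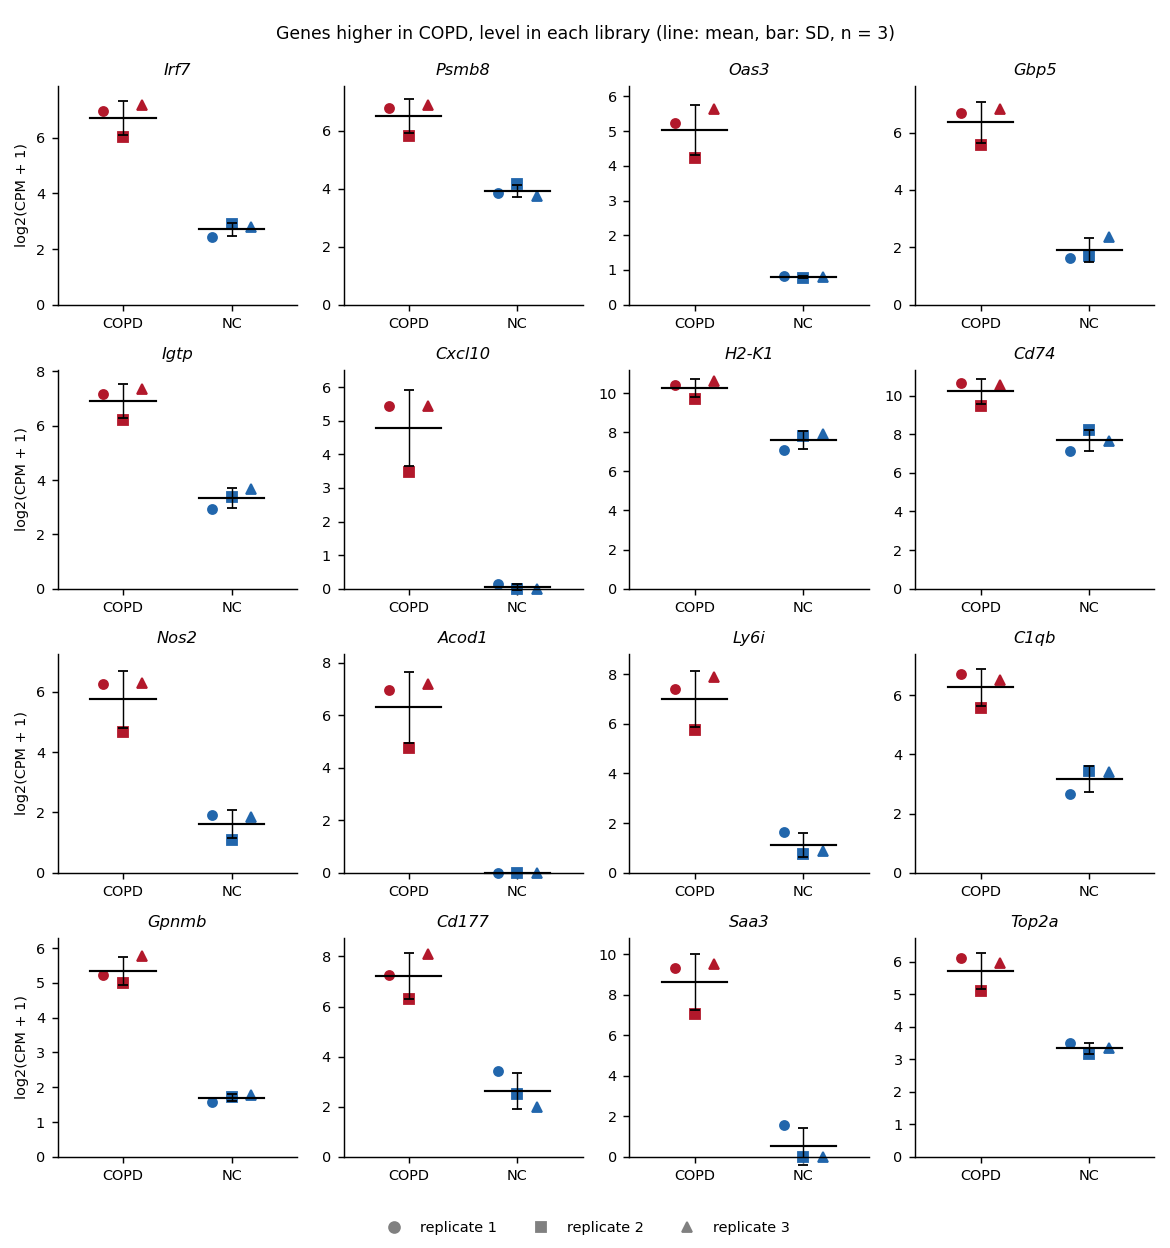
Level of 16 genes in each library as log2(CPM + 1), COPD left and NC right. Symbols mark the replicate, the line is the mean and the bar is the SD of 3 libraries. Every COPD point is above every NC point for each gene, and COPD replicate 2 (squares) is the lowest of its group in all 16 panels.

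The sequences before the start of a few of these genes are shown because targets of STAT and IRF factors carry short recognition motifs there, and because 2 of them were at or near 0 in NC. Windows of 250 bases before the annotated start were taken from RefSeq (GRCm38.p6), and each is written 5′ to 3′ on the strand of its gene with the motifs in capitals. The motifs searched on both strands were the interferon-stimulated response element (ISRE) as GAAA followed by any 2 bases and GAAA, the gamma-activated site (GAS) as TTCNNNGAA and the kappaB site as GGGA followed by any 4 bases and CC. The 6 genes were chosen after their values had been seen.
Cxcl10: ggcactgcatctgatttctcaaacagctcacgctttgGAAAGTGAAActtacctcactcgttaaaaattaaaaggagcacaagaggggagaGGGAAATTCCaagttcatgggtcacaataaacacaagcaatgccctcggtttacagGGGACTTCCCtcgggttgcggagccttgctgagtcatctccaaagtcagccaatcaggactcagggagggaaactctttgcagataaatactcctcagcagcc
Cxcl9: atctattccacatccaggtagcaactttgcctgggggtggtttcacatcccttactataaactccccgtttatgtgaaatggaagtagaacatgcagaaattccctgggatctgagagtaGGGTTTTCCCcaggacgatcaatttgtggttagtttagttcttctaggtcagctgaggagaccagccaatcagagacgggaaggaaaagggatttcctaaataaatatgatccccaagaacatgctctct
Gbp5: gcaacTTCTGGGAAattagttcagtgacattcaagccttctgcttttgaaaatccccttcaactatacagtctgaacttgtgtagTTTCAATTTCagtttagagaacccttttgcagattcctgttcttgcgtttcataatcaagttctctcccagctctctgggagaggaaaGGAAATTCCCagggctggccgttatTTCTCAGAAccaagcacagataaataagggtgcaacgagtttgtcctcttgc
Igtp: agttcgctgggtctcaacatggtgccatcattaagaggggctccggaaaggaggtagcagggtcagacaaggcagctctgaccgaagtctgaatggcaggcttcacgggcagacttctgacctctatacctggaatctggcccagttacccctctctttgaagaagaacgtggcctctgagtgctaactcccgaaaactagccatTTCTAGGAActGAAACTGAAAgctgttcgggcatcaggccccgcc
Irgm1: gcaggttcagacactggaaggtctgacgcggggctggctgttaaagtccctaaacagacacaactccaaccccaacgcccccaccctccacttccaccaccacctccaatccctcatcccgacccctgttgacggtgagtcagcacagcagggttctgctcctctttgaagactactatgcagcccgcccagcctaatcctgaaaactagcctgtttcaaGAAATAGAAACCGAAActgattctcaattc
Oas3: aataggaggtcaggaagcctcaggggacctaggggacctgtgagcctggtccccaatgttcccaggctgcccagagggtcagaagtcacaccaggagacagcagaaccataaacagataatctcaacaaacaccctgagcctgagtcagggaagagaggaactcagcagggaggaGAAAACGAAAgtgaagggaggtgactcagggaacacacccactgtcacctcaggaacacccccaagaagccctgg

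The Cxcl10 window (chr5:92348890-92349139, minus strand) held an ISRE that begins 213 bases before the start and kappaB matches at 159 and 103. In the Cxcl9 window (chr5:92328080-92328329, minus strand) a kappaB match at 130 was found on the opposite strand. That of Gbp5 (chr3:142496684-142496933, plus strand) held GAS matches at 245 and 52 and on the opposite strand an ISRE at 165 and a kappaB match at 77. Igtp (chr11:58199306-58199555, plus strand) had an ISRE at 34 shortly after a GAS match at 45, and Irgm1 (chr11:48871421-48871670, minus strand) had overlapping ISRE matches at 30 and 24. In Oas3 (chr5:120777660-120777909, minus strand) an ISRE lay at 75. Over the genes that rose and had a window, 34 of 219 (15.5%) held an ISRE, compared with 457 of 13644 tested genes (3.35%). The GAS motif was in 25 (11.4%) and in 1015 of all (7.44%), and the kappaB motif was in 53 (24.2%) and in 3464 of all (25.4%). Of the 12 genes that fell, 11 had a window and none of these held an ISRE, which so few genes cannot set apart from the 3.35% of all. A gene was counted where any of its windows held the motif, and 2667 of the tested genes had more than 1 window. The shares were not adjusted for the number of windows. A match describes the letters of the window and not a bound site.

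Among genes for antigen presentation by MHC class I, 11 of 27 rose. H2-K1, a classical class I heavy chain, was at 1351, 838 and 1557 CPM in the COPD lungs, against 135, 222 and 239 CPM in the NC lungs. The lowest COPD library was far above the highest NC library, and the log2 fold change was 2.65 ± 0.38 (adjusted p = 0.0235). Tap1, a subunit of the peptide transporter into the endoplasmic reticulum, was at 230, 154 and 265 CPM in COPD and 14.6, 34.1 and 33.9 CPM in NC, and Psmb8, a subunit of the immunoproteasome, was at 109, 55.7 and 117 CPM in COPD and 13.5, 16.8 and 12.4 CPM in NC. They rose, with log2 fold changes of 2.98 ± 0.52 and 2.72 ± 0.51. B2m, the light chain, was a DEG at 626, 165 and 671 CPM in COPD and 76.4, 57.6 and 64.02 CPM in NC (adjusted p = 0.0566), with COPD replicate 2 far below the other COPD libraries. Of 27 class I genes tested, 11 rose and 23 were DEGs, with a median of 2.01. The H2 genes share long stretches of sequence, so reads may have been split between them. The 27 constitutive proteasome subunits were a contrast, with no gene past the adjusted p in edgeR (0 higher and 0 lower at an unadjusted p under 0.05, 0 higher and 0 lower in DESeq2), no DEG and a median of 0.13. The chaperones Pdia3 and Calr had overlapping groups, with Calr at 254, 96.3 and 230.4 CPM in COPD and 141, 111 and 102 CPM in NC.

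MHC class II genes, which are expressed mainly by dendritic cells, macrophages and B cells, showed 3 that rose among 17. Cd74, the invariant chain, was at 1576, 713 and 1481 CPM in the COPD lungs, against 141, 293 and 203 CPM in the NC lungs. The groups did not overlap and the log2 fold change was 2.57 ± 0.45 (adjusted p = 0.0335). H2-Eb1 and H2-Ab1 rose, with log2 fold changes of 2.44 ± 0.43 and 2.64 ± 0.52. Cd274, which encodes the checkpoint ligand PD-L1, was a DEG at 91.02, 50.8 and 124 CPM in COPD and 3.796, 8.52 and 11.1 CPM in NC. In all, 13 class II genes were DEGs (8 without NC replicate 1), but H2-Ob, a class II chain of B cells, was at 9.53, 17.6 and 16.6 CPM in COPD and 4.87, 22.2 and 19.6 CPM in NC, with overlap.

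Chemokines included some of the genes with the widest gaps. Cxcl9, a ligand of CXCR3 that draws T cells, was at 59.4, 11.98 and 67.02 CPM in COPD and at 0 in all NC libraries. Measured against a floor of 3 counts in each NC library, it was at least 524-fold higher in COPD (adjusted p = 0.0361). Cxcl10, a second CXCR3 ligand, was at 42.7, 10.1 and 42.1 CPM in COPD and 0.1097, 0 and 0 CPM in NC, a log2 fold change of 9.32 ± 1.59 (adjusted p = 0.031). Both genes were far lower in COPD replicate 2 than in the other COPD libraries. Cxcl3, a ligand of the neutrophil receptor CXCR2, was at 4.72, 2.08 and 3.95 CPM in COPD and 0 in NC, at least 40.7-fold higher. Cxcl16, a membrane-bound chemokine that also takes up oxidised lipids, was at 103, 59.95 and 118 CPM in COPD and 11.1, 16.2 and 20.6 CPM in NC and rose, with a log2 fold change of 2.55 ± 0.48. Ppbp, a platelet chemokine, was the only CXC gene that was a DEG in the other direction, at 0.633, 0 and 1.52 CPM in COPD and 24.9, 4.88 and 2.003 CPM in NC, with NC replicate 1 high, and no CXC gene was a lower DEG without that library.

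Among CC chemokines, Ccl3 and Ccl6, which act on monocytes and macrophages, rose. Ccl6 was at 33.4, 16.8 and 18.7 CPM in COPD and 7.37, 8.61 and 9.48 CPM in NC, and Ccl3 was at 5.38, 1.27 and 5.44 CPM in COPD and 0.1097, 0 and 0 CPM in NC. The gap was wider for Ccl3, at 6.38 ± 1.34, than for Ccl6, at 1.44 ± 0.27. Ccl2, the main ligand of CCR2 on monocytes, was a DEG at 6.28, 1.91 and 7.27 CPM in COPD and 0, 0 and 0.143 CPM in NC (adjusted p = 0.0579). Of 17 genes each, 11 CXC and 9 CC chemokines were DEGs higher in COPD, and 4 and 2 rose. On the receptor side, Cx3cr1, the fractalkine receptor of monocytes, was at 33.4, 16.99 and 34.3 CPM in COPD and 4.39, 7.25 and 6.01 CPM in NC. It rose, with a log2 fold change of 2.26 ± 0.37 and no overlap, while Ccr2 was a DEG at 101, 54.4 and 111 CPM in COPD and 17.5, 19.8 and 22.6 CPM in NC with an adjusted p of 0.0515.

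No gene among the 29 cytokines tested passed the adjusted p in edgeR (15 higher and 0 lower at an unadjusted p under 0.05, 12 higher and 0 lower in DESeq2), although 15 were DEGs and the median was 2.70. Tnf, the cytokine made early by macrophages after LPS, was at 17.4, 2.86 and 12.4 CPM in the COPD lungs, against 0, 0 and 0.608 CPM in the NC lungs. No group overlap was seen, but the spread within COPD was wide, and the adjusted p was 0.0732. Il1b was at 51.96, 11.1 and 50.2 CPM in COPD and 1.01, 2.94 and 2.22 CPM in NC, and its antagonist Il1rn was at 44.6, 11.6 and 50.8 CPM in COPD and 0.987, 1.43 and 0.6795 CPM in NC. For both, COPD replicate 2 was far below the other COPD libraries, and the adjusted p values were 0.0992 and 0.0579. Of 30 cytokine receptor genes 6 rose. Csf2rb2, a receptor chain of the IL-3 family, was at 45.8, 30.2 and 59.03 CPM in COPD and 2.37, 1.64 and 2.54 CPM in NC, and Csf2rb, the shared chain for GM-CSF, IL-3 and IL-5, was at 111, 55.5 and 117 CPM in COPD and 6.06, 12.04 and 11.2 CPM in NC. These neighbours are near-identical in sequence, so their separate log2 fold changes of 4.36 ± 0.62 and 3.28 ± 0.63 are uncertain. Il10ra, which passes on the anti-inflammatory signal of IL-10, was at 75.5, 58.05 and 90.9 CPM in COPD and 9.39, 14.5 and 18.6 CPM in NC, and Csf1r, the receptor that macrophages depend on, was at 236, 134 and 238 CPM in COPD and 28.9, 54.6 and 57.4 CPM in NC. Both rose, with log2 fold changes of 2.41 ± 0.43 and 2.11 ± 0.44. Il6st, the shared receptor chain of the IL-6 family, was at 249, 176 and 226 CPM in COPD and 259, 212 and 231 CPM in NC.

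In the Toll-like receptor and NF-kappaB list, 6 of 41 genes rose, and inhibitors of the pathway were among them. Tnfaip3, a deubiquitinase that ends NF-kappaB signalling, was at 60.8, 50.03 and 73 CPM in the COPD lungs, against 9.57, 9.13 and 12.5 CPM in the NC lungs. The log2 fold change was 2.56 ± 0.53 (adjusted p = 0.0459) with no overlap. Nfkbie, an IkappaB protein, was at 24.7, 22.4 and 27.9 CPM in COPD and 2.79, 5.61 and 6.54 CPM in NC and Irak3, a negative regulator of IRAK kinases, was at 18.6, 15.3 and 19.4 CPM in COPD and 4.45, 5.19 and 4.399 CPM in NC. Relb, a subunit of the non-canonical pathway, was at 28.6, 26.1 and 26.2 CPM in COPD and 8.602, 10.6 and 13.8 CPM in NC, with all COPD libraries within a narrow range. These 3 rose, with log2 fold changes of 2.33 ± 0.44, 1.92 ± 0.38 and 1.30 ± 0.26, as did Tlr12 (log2 fold change 2.51 ± 0.50) and the adaptor Ticam2 (log2 fold change 2.61 ± 0.55). Tlr2, a receptor of bacterial lipoproteins, was a DEG at 66.3, 30.1 and 82.6 CPM in COPD and 6.1, 8.34 and 8.12 CPM in NC, and Nfkb1 had a log2 fold change of 0.63 ± 0.24 (adjusted p = 0.233). Of 41 genes tested, 23 were DEGs, with a median of 1.18.

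Of 21 inflammasome and pyroptosis genes, Nlrp1b, a sensor of bacterial proteases, was the only gene that rose. It was at 33.05, 45.8 and 47.9 CPM in COPD and 5.42, 7.85 and 15.4 CPM in NC, a log2 fold change of 2.15 ± 0.40 (adjusted p = 0.0361). Mefv, which encodes the sensor pyrin, was at 18.97, 14.9 and 23.95 CPM in COPD and 0.461, 2.24 and 1.22 CPM in NC. Naip2, a sensor of bacterial secretion systems, was at 44.2, 25.2 and 60.2 CPM in COPD and 9.13, 7.22 and 6.44 CPM in NC. Both were DEGs whose groups did not overlap, among 13 DEGs in this list. P2rx7, the ATP-gated channel upstream of NLRP3, was at 24.8, 26.9 and 27.96 CPM in COPD and 15.1, 13.5 and 13.8 CPM in NC and Nek7, a partner of NLRP3, was at 44.9, 42.01 and 60.9 CPM in COPD and 77.9, 71.3 and 63.1 CPM in NC. The first lay above NC and the second below it in every library, with log2 fold changes of 0.91 ± 0.25 and -0.52 ± 0.19 that did not pass the test.

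Of 25 enzymes and related genes with which macrophages and neutrophils act on microbes, 7 rose. Acod1, which makes itaconate from an intermediate of the citric acid cycle, was at 125, 25.9 and 147 CPM in COPD and at 0 in all NC libraries. It was at least 1125-fold higher (adjusted p = 0.0319), the widest gap of any gene that rose. Nos2, the inducible nitric oxide synthase, was at 76.2, 24.4 and 77.9 CPM in the COPD lungs, against 2.74, 1.12 and 2.65 CPM in the NC lungs. Cybb, the catalytic subunit of the phagocyte NADPH oxidase, was at 192, 67.2 and 235 CPM in COPD and 9.46, 12.8 and 12.1 CPM in NC. These genes rose, with log2 fold changes of 4.77 ± 1.00 and 3.84 ± 0.70 with no overlap. The lipid mediator genes Alox5ap, for leukotrienes, and Tbxas1, for thromboxane, rose, with log2 fold changes of 2.02 ± 0.42 and 2.30 ± 0.34, whereas Ptgs2, the inducible cyclooxygenase, was at 33.02, 11.1 and 29.5 CPM in COPD and 55.8, 23.7 and 23.4 CPM in NC, with overlap.

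The markers of monocytes and recruited macrophages held the largest share of genes that rose among the myeloid lists, 15 of 32. Ly6i, a Ly6 surface protein of myeloid cells, was at 170.4, 52.1 and 235 CPM in the COPD lungs, against 2.15, 0.697 and 0.858 CPM in the NC lungs. The lowest COPD value was far above the highest NC value, and the log2 fold change was 6.91 ± 0.85 (adjusted p = 0.0235). C1qb, a chain of complement C1q made by tissue macrophages, was at 106, 46.1 and 89.8 CPM in COPD and 5.31, 9.86 and 9.55 CPM in NC, and Adgre1, which encodes F4/80, was at 86.99, 38.9 and 102 CPM in COPD and 6.03, 7.399 and 8.798 CPM in NC. C1qa, C1qb and C1qc moved together, with log2 fold changes of 3.10 ± 0.43, 3.29 ± 0.42 and 3.28 ± 0.47. Aif1, an actin-bundling protein of macrophages, rose, with a log2 fold change of 4.14 ± 0.66, and Ms4a7 by 2.97 ± 0.43. Summed over the fixed macrophage markers C1qa, Cd68 and Adgre1, the level was 215, 106 and 239 CPM in COPD and 15.3, 22.4 and 23.2 CPM in NC. The part of this shift in the results for interferon, MHC class II and enzyme genes was not tested. Matrix and early-response genes on the same list, such as Fn1 at 238, 133 and 268 CPM in COPD and 78.4, 168 and 155 CPM in NC, overlapped between groups.

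Fc and sialic acid receptors of phagocytes included 9 genes that rose among 34. Fcgr1, the high-affinity IgG receptor, was at 25.96, 6.47 and 29.96 CPM in COPD and 0.592, 0.485 and 0 CPM in NC, and Fcgr3, a low-affinity IgG receptor, was at 51.1, 23.5 and 53.8 CPM in COPD and 2.87, 4.73 and 4.04 CPM in NC. Siglec1, the sialoadhesin of macrophages, was at 46.8, 36.7 and 42.1 CPM in COPD and 5.22, 9.704 and 8.23 CPM in NC, with COPD libraries within a narrow range. The log2 fold changes were 5.76 ± 1.09, 3.46 ± 0.67 and 2.44 ± 0.32, and 24 genes in this list were DEGs. Of the scavenger and C-type lectin receptors, Cxcl16 alone rose among 28, and Msr1, the class A scavenger receptor, was a DEG at 32.6, 10.4 and 39.7 CPM in COPD and 1.82, 1.82 and 2.54 CPM in NC. Cd36, a fatty acid receptor of endothelium and macrophages, was lower in every COPD library, at 136, 101 and 142 CPM in COPD and 297, 231 and 212 CPM in NC, with an adjusted p of 0.0579.

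Gpnmb, a transmembrane glycoprotein of lipid-laden macrophages, had the smallest p of any gene in the functional lists. It was at 36.5, 31.02 and 54.03 CPM in the COPD lungs, against 1.997, 2.305 and 2.43 CPM in the NC lungs. COPD replicate 2 was near the other COPD libraries here, and the log2 fold change was 4.18 ± 0.45 (adjusted p = 0.0172). Fabp5, a fatty acid-binding protein, was at 25.5, 13.96 and 29.8 CPM in COPD and 3.51, 2.88 and 3.25 CPM in NC and rose, with a log2 fold change of 2.84 ± 0.42. Trem2, a lipid receptor of the same cells, was a DEG at 8.52, 5.58 and 9.67 CPM in COPD and 0.878, 3.34 and 0.2503 CPM in NC, among 10 DEGs of 21. Markers of resident alveolar macrophages were split in sign, with 13 log2 fold changes above 0 and 10 below, and a median of 0.36. Of the 23 tested, 7 (30.4%) were higher DEGs, against 7.12% of all genes, and 0 were lower DEGs. Itgax, which encodes CD11c, rose, at 105, 68.01 and 112 CPM in COPD and 11.6, 26.1 and 30.04 CPM in NC. Siglecf was at 2.68, 1.98 and 1.57 CPM in COPD and 0.8997, 2.88 and 1.93 CPM in NC, with overlap. Chil3 was a DEG, also with overlap, at 108, 41.4 and 64.8 CPM in COPD and 26.8, 51.8 and 27.5 CPM in NC.

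Of 31 neutrophil genes 21 passed the filter, and 6 of these were DEGs, with a median of 2.22. Cd177, a surface glycoprotein of neutrophils, was the only gene of this list that rose. It was at 153, 77.5 and 276 CPM in the COPD lungs, against 9.63, 4.7 and 2.97 CPM in the NC lungs, a log2 fold change of 4.86 ± 0.65 (adjusted p = 0.0235). Csf3r, the G-CSF receptor, was a DEG at 38.9, 60.3 and 66.3 CPM in COPD and 1.84, 11.1 and 10.4 CPM in NC. S100a8, an abundant granulocyte protein, was at 4.29, 2.33 and 5.55 CPM in COPD and 0.856, 0.758 and 1.001 CPM in NC. Neither S100a8 nor S100a9 was a DEG (adjusted p = 0.353 and 0.503 in edgeR). The sum over S100a8, S100a9, Retnlg and Csf3r was 52.0 to 80.7 CPM in COPD and 4.98 to 15.9 CPM in NC, and Csf3r made up most of it in COPD. Retnlg, a defining neutrophil gene, was at 1.58, 0.989 and 0.458 CPM in COPD and 1.21, 1.46 and 0 CPM in NC, with overlap.

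Lymphocyte genes were low and moved by cell type. Ctla4, a checkpoint receptor of regulatory and activated T cells, was at 1.497, 3.32 and 2.17 CPM in COPD and 0.0658, 0 and 0 CPM in NC, and Tbx21, the factor of type 1 T cells and NK cells, was at 5.58, 4.42 and 5.44 CPM in COPD and 1.47, 0.9401 and 0.787 CPM in NC. Both rose, with log2 fold changes of 6.29 ± 1.11 and 2.26 ± 0.44. Cd3e, of the T cell receptor complex, was at 2.94, 4.42 and 5.64 CPM in COPD and 0.922, 1.58 and 1.43 CPM in NC, and 18 of 35 T and NK cell genes were DEGs. All 35 had a positive log2 fold change, with a median of 1.73, but the NK receptor Ncr1 was at 6.25, 6.43 and 7.24 CPM in COPD and 2.92, 4.06 and 5.51 CPM in NC (adjusted p = 0.543). Of 23 B and plasma cell genes none rose or fell in edgeR (0 higher and 0 lower at an unadjusted p under 0.05, 0 higher and 0 lower in DESeq2) and none was a DEG, with a median of 0.06.

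Of 41 adaptors and signalling genes of leukocytes 9 rose, as did 5 of 22 solute carriers and channels of the same cells. Laptm5, a lysosomal protein of blood cells, was at 178, 127 and 183 CPM in COPD and 24.3, 42.1 and 38.4 CPM in NC, Tyrobp, the adaptor DAP12, was at 75.3, 36.6 and 73.6 CPM in COPD and 7.702, 12.5 and 12.1 CPM in NC, and Vav1, an exchange factor of haematopoietic cells, was at 67.6, 42.6 and 89.9 CPM in COPD and 7.46, 11.9 and 13.5 CPM in NC. The log2 fold changes were 2.22 ± 0.32, 2.52 ± 0.49 and 2.61 ± 0.50, and 32 genes of the list were DEGs. Slc11a1, the metal transporter of phagosomes also called NRAMP1, was at 46.6, 23.95 and 53.2 CPM in COPD and 2.55, 1.79 and 2.25 CPM in NC, and Trpm2, a channel opened by oxidative stress, was at 22.8, 33.4 and 36.4 CPM in COPD and 1.32, 3.79 and 4.29 CPM in NC. They rose, with log2 fold changes of 4.23 ± 0.66 and 3.31 ± 0.53, as did the potassium channel Kcnn4 (log2 fold change 2.09 ± 0.29). Ctss, a cathepsin of antigen-presenting cells, was at 389, 147 and 465 CPM in COPD and 12.6, 23.7 and 22.1 CPM in NC and rose, with a log2 fold change of 4.10 ± 0.64, with Cd68 (log2 fold change 3.10 ± 0.64). Of 46 lysosomal genes these 2 rose, while 17 (37.0%) were higher DEGs, against 7.12% of all genes, and the median was 0.96. Lamp1, present in lysosomes of all cells, was at 204, 113 and 196 CPM in COPD and 179.6, 146 and 139.8 CPM in NC.

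**Figure D2:**
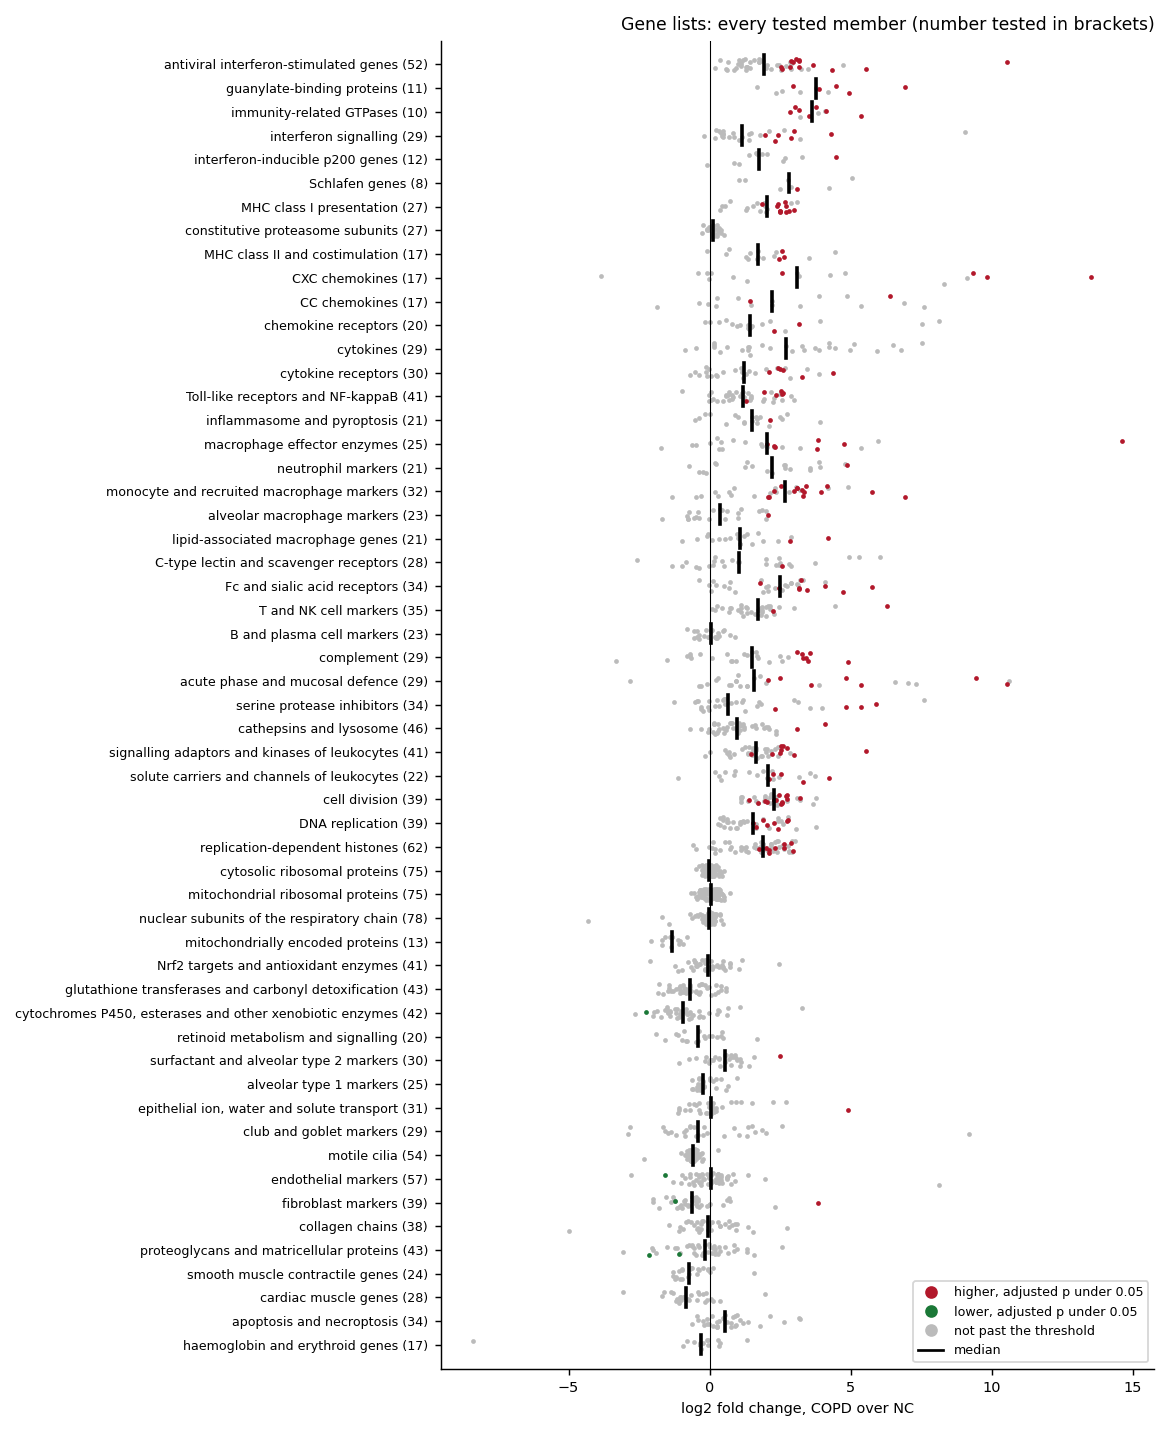
Log2 fold change (COPD over NC, x axis) of every tested gene in 55 functional lists (y axis, number tested in brackets). Red points rose, green points fell, grey points did not pass an adjusted p of 0.05 and black ticks are medians. Immune and proliferation lists are shifted to the right, ribosomal and respiratory chain lists sit near 0, and xenobiotic, mitochondrially encoded and smooth muscle lists are shifted to the left. Points beyond 9 include genes at 0 in all NC libraries, whose fitted value depends on the prior count.

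Of 29 acute phase and mucosal defence genes 7 rose. Saa3, an acute phase apolipoprotein made in lung by macrophages and epithelium, was at 633, 131 and 722 CPM in the COPD lungs, against 1.95, 0 and 0 CPM in the NC lungs. The NC libraries were at or near 0, and the log2 fold change was 9.45 ± 1.72 (adjusted p = 0.0345). Lcn2, which binds bacterial siderophores, was at 357, 100.2 and 523 CPM in COPD and 9.44, 9.49 and 4.65 CPM in NC, and Slpi, an inhibitor of neutrophil elastase, was at 22.4, 9.61 and 22.1 CPM in COPD and 0.285, 1.06 and 0.572 CPM in NC. They rose, with log2 fold changes of 5.37 ± 0.96 and 4.83 ± 0.72. Retnla, a resistin-like protein of type 2 responses, was at 678, 164 and 463 CPM in COPD and 51.1, 25.8 and 30.7 CPM in NC, and Chil1, a chitinase-like protein of macrophages and epithelium, was at 1312, 445 and 1109 CPM in COPD and 174, 189.7 and 151 CPM in NC. Both rose, with log2 fold changes of 3.60 ± 0.60 and 2.47 ± 0.49, and Dmbt1, a mucosal scavenger receptor, was at 6.304, 1.24 and 10.2 CPM in COPD and 0 in NC, at least 67.3-fold higher. Haptoglobin (Hp), an acute phase gene expressed at baseline in lung, was at 1237, 448 and 719 CPM in COPD and 1335, 1043 and 712 CPM in NC, with overlap. In all 16 genes of this list were DEGs. Serpina3g and Serpina3f, serine protease inhibitors of a multigene family whose reads may be shared, rose, with log2 fold changes of 5.36 ± 0.93 and 5.89 ± 1.13.

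The complement list had 7 genes that rose among 29. Cfb, the protease of the alternative pathway, was at 565, 183 and 759 CPM in the COPD lungs, against 26.6, 13.7 and 9.98 CPM in the NC lungs. The groups were far apart, with a log2 fold change of 4.90 ± 0.76 (adjusted p = 0.0261). The anaphylatoxin receptors C3ar1 and C5ar1 rose, with log2 fold changes of 3.57 ± 0.59 and 3.49 ± 0.63, and Itgam, a chain of complement receptor 3, by 3.41 ± 0.63. C3 itself was a DEG at 1536, 546 and 1387 CPM in COPD and 521, 386 and 310.1 CPM in NC, and C4b was at 333, 162 and 255 CPM in COPD and 122, 153 and 155 CPM in NC. Coagulation factor gene F10 rose, at 23.5, 9.01 and 35.2 CPM in COPD and 0.922, 1.12 and 2.07 CPM in NC, a log2 fold change of 4.05 ± 0.85.

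Genes of the cell cycle included 15 of 39 in cell division and 8 of 39 in replication that rose. Top2a, the topoisomerase of dividing cells, was at 68.7, 32.9 and 60.5 CPM in the COPD lungs, against 10.4, 7.98 and 9.12 CPM in the NC lungs. The log2 fold change was 2.56 ± 0.38 (adjusted p = 0.0235). Bub1b, of the spindle checkpoint, was at 19.4, 10.95 and 15.1 CPM in COPD and 3.12, 2.46 and 3.79 CPM in NC and Kif15, a mitotic kinesin, was at 8.002, 6.82 and 9.76 CPM in COPD and 0.746, 1.46 and 1.502 CPM in NC. The groups did not overlap for these genes, and they rose, with log2 fold changes of 2.28 ± 0.31 and 2.74 ± 0.37. Of 39 cell division genes 15 rose and 34 were DEGs, with a median of 2.26 and 2.33 without NC replicate 1. In the replication list, Pole, a leading-strand polymerase subunit, was at 18.9, 9.47 and 15.1 CPM in COPD and 2.59, 3.21 and 3.18 CPM in NC and Lig1, the ligase that joins Okazaki fragments, was at 19.4, 17.3 and 16.3 CPM in COPD and 5.73, 6.73 and 6.04 CPM in NC. They rose, with log2 fold changes of 2.28 ± 0.31 and 1.52 ± 0.21. Pcna, the polymerase clamp, was at 33.4, 9.64 and 26.5 CPM in COPD and 19.03, 13.2 and 13.02 CPM in NC, with overlap. Of 62 replication-dependent histone genes, which are transcribed in S phase and lack poly(A) tails, 9 rose and 47 were DEGs. H1f1 was at 15.1, 6.43 and 12.1 CPM in COPD and 1.73, 1.94 and 1.75 CPM in NC and rose, with a log2 fold change of 2.63 ± 0.46, while H1f4 was at 40.96, 27.4 and 38.9 CPM in COPD and 43.1, 39.03 and 28.04 CPM in NC. Histone genes are near-identical copies, so counts of single members are uncertain.

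Of the genes that rose, 118 belonged to no list. The following were chosen after their values had been seen. Espl1, the separase that cuts cohesin, was at 15.1, 13.8 and 18.6 CPM in COPD and 2.33, 1.91 and 1.65 CPM in NC, and Dnmt1, the maintenance DNA methyltransferase, was at 73.8, 59.7 and 75.1 CPM in COPD and 32.04, 34.2 and 36.5 CPM in NC. Both belong to dividing cells and rose, with log2 fold changes of 3.01 ± 0.32 and 1.02 ± 0.20. Zc3h12a, the RNase that degrades cytokine mRNA, was at 28.2, 27.8 and 27.9 CPM in COPD and 6.93, 10.9 and 9.91 CPM in NC, and Unc93b1, which delivers nucleic acid-sensing Toll-like receptors to endosomes, was at 110.4, 70.9 and 111 CPM in COPD and 32.7, 34.9 and 35.4 CPM in NC. These regulators rose, with log2 fold changes of 1.60 ± 0.33 and 1.51 ± 0.29. Havcr2, which encodes TIM-3, was at 12.03, 10.1 and 13.8 CPM in COPD and 1.97, 1.97 and 3.29 CPM in NC, and Lrg1, a secreted glycoprotein of inflamed endothelium and neutrophils, was at 55.1, 34.3 and 56.4 CPM in COPD and 4.24, 7.58 and 7.94 CPM in NC. They rose, with log2 fold changes of 2.31 ± 0.42 and 2.89 ± 0.46.

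**Figure D3:**
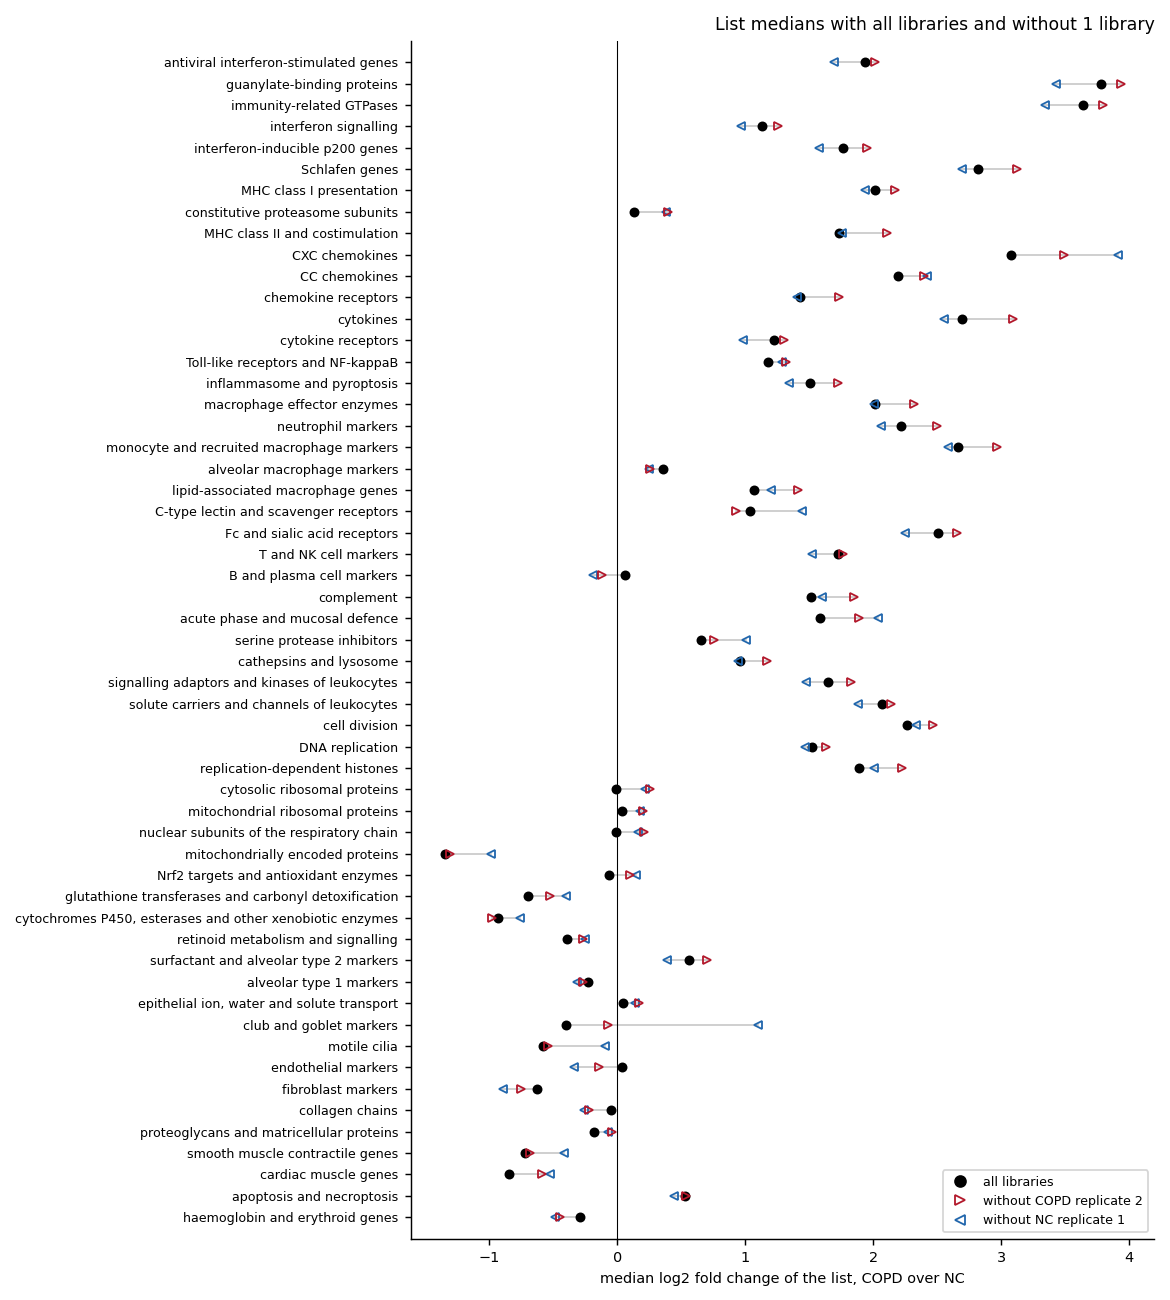
Median log2 fold change (x axis) of each of the 55 functional lists with all libraries (black), without COPD replicate 2 (red, right-pointing) and without NC replicate 1 (blue, left-pointing). Medians of interferon, MHC, phagocyte and proliferation lists stay above 0 in all 3. That of the club and goblet list is −0.40 with all libraries and 1.10 without NC replicate 1.

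The 12 genes that fell had log2 fold changes between −2.35 and −0.94 and included genes of the matrix, of epithelium and of detoxification. Pon1, a paraoxonase that hydrolyses lactones and organophosphates, was at 25.4, 21.4 and 22.7 CPM in the COPD lungs, against 156, 98.8 and 81.01 CPM in the NC lungs. All COPD values were within a narrow range below the lowest NC value, and the log2 fold change was -2.27 ± 0.38 (adjusted p = 0.0294). Ogn, a small leucine-rich proteoglycan of fibroblasts, was at 38.9, 18.3 and 23.6 CPM in COPD and 159.7, 82.7 and 119.8 CPM in NC, and Sdc2, a heparan sulfate proteoglycan, was at 18.3, 15.7 and 18.9 CPM in COPD and 37.1, 40.2 and 34.6 CPM in NC. They fell, with log2 fold changes of -2.16 ± 0.39 and -1.08 ± 0.19. Efemp1, a fibulin of elastic tissue, was at 19.9, 12.6 and 15.7 CPM in COPD and 42.9, 42.8 and 36.4 CPM in NC, and Gucy1a2, which encodes a chain of soluble guanylate cyclase, was at 8.95, 11.2 and 10.1 CPM in COPD and 21.8, 31.8 and 32.6 CPM in NC. Both fell, with log2 fold changes of -1.34 ± 0.27 and -1.51 ± 0.29, and Esm1, a proteoglycan of endothelial tip cells, had -1.58 ± 0.33. The epithelial genes, the keratin gene Krt23 (4.81, 5.05 and 4.01 CPM in COPD and 14.04, 13.6 and 12.3 CPM in NC) and Rptn (1.55, 1.27 and 2.35 CPM in COPD and 13.3, 9.64 and 3.58 CPM in NC), fell, with log2 fold changes of -1.53 ± 0.27 and -2.35 ± 0.48. The others were Cacna2d1 (log2 fold change -1.18 ± 0.22), a calcium channel subunit, Vgll3 (log2 fold change -1.21 ± 0.24), a cofactor of TEAD factors, Nt5dc1 (log2 fold change -0.98 ± 0.19) and Prxl2c (log2 fold change -0.94 ± 0.18).

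Xenobiotic enzymes leaned to lower levels in COPD beyond Pon1. Of 42 cytochrome P450, esterase and related genes, 17 were lower DEGs, 19 had every COPD library below every NC library and the median was -0.94. Without NC replicate 1 the median was -0.76. Aox3, an aldehyde oxidase, was at 158, 114 and 124 CPM in COPD and 494, 265 and 291 CPM in NC, and Ces1f, a carboxylesterase, was at 2.85, 0.954 and 2.66 CPM in COPD and 18.3, 12.04 and 10.2 CPM in NC. Neither passed the adjusted p, at 0.0689 and 0.0713. Cyp2f2, the P450 that marks club cells in mice, was at 1462, 910.4 and 1125 CPM in the COPD lungs, against 5387, 3166 and 2044 CPM in the NC lungs. The groups did not overlap, but NC replicate 1 was the highest by far, and the adjusted p was 0.171. In the other direction Cyp4f18, a leukotriene hydroxylase of leukocytes, was a DEG at 35.98, 18.5 and 43.8 CPM in COPD and 1.14, 5.16 and 3.93 CPM in NC. Among glutathione transferases and carbonyl enzymes 11 of 43 were lower DEGs and none fell in edgeR (0 higher and 18 lower at an unadjusted p under 0.05, 0 higher and 6 lower in DESeq2), with Gsta3 at 41.1, 39.6 and 27.4 CPM in COPD and 158, 107 and 75 CPM in NC and Gstm1 at 64.7, 55.7 and 52.8 CPM in COPD and 231, 135 and 105 CPM in NC. The lower DEGs were 7 without COPD replicate 2 and 5 without NC replicate 1, and the list median was -0.70 and -0.40 without NC replicate 1. Aldh1a1, which makes retinoic acid and clears aldehydes, was at 543, 321 and 516 CPM in COPD and 1717, 812 and 653 CPM in NC, and Lrat, which stores retinol as ester, was at 9.61, 12.4 and 6.07 CPM in COPD and 27.6, 20.98 and 34.9 CPM in NC. Both were DEGs, with adjusted p values of 0.214 and 0.0579.

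Of 41 Nrf2 targets and antioxidant genes none passed the adjusted p in edgeR (4 higher and 7 lower at an unadjusted p under 0.05, 1 higher and 4 lower in DESeq2), and the median was -0.07. Nqo1, the quinone reductase that is a classical Nrf2 target, was a lower DEG at 4.63, 1.31 and 1.57 CPM in COPD and 15.2, 11.5 and 6.08 CPM in NC, and catalase (Cat) was a lower DEG at 146, 90.8 and 103 CPM in COPD and 351, 214 and 181 CPM in NC. Slc7a11, the cystine importer, was a higher DEG at 25.2, 13.7 and 31.2 CPM in COPD and 5.201, 3.43 and 4.22 CPM in NC. The adjusted p values were 0.0912, 0.139 and 0.123. Ferritin heavy chain (Fth1) was at 1415, 740.5 and 1481 CPM in COPD and 757, 555 and 449 CPM in NC, with overlap.

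**Figure D4:**
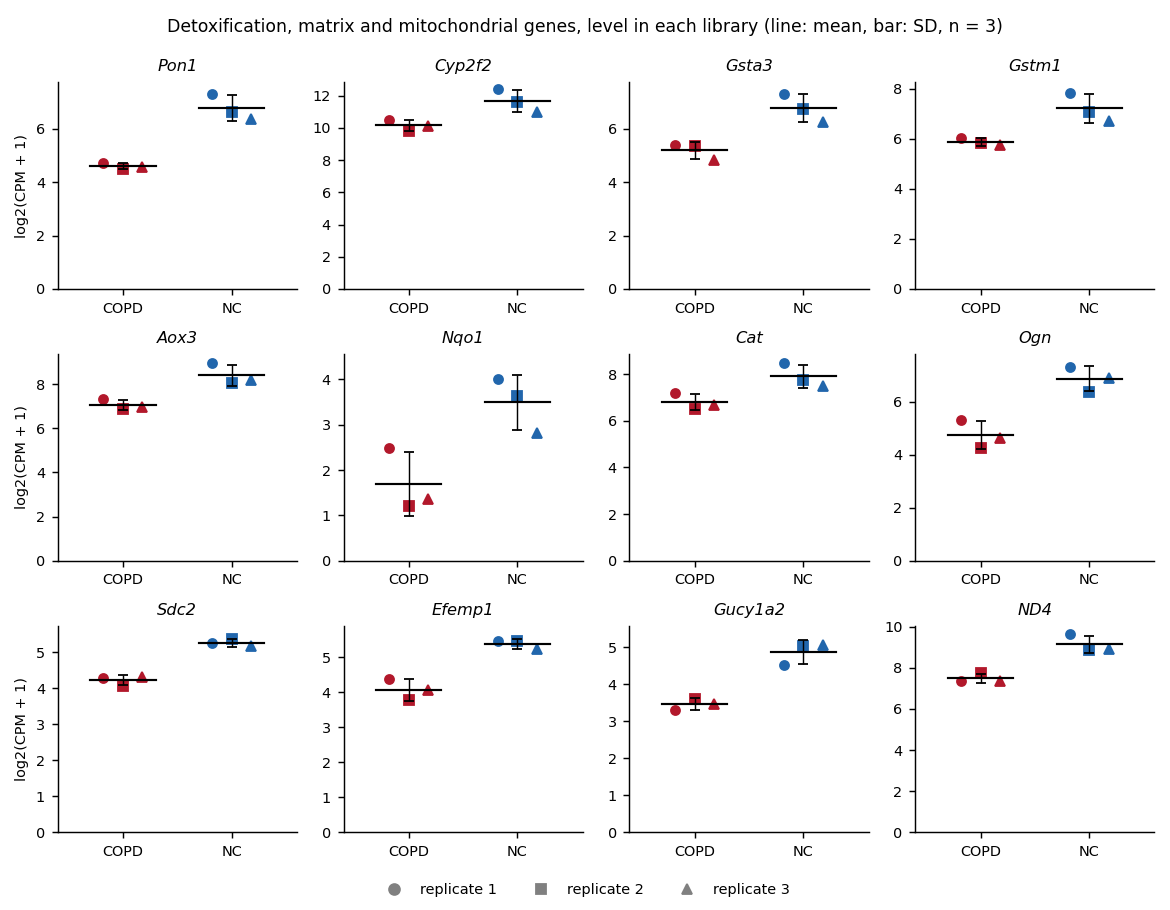
Level of 12 detoxification, matrix and mitochondrial genes in each library as log2(CPM + 1), COPD left and NC right, with the mean (line) and SD (bar) of 3 libraries. COPD lies below NC in every panel. NC replicate 1 (circle) is the highest NC library for Pon1, Cyp2f2, Gsta3, Gstm1, Aox3, Nqo1, Cat, Ogn, ND4 and, by a small margin, Efemp1, and Pon1, Ogn, Sdc2, Efemp1 and Gucy1a2 passed the adjusted p.

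All 13 mitochondrially encoded protein genes had a negative log2 fold change, with a median of -1.35, and 8 were DEGs. None fell in edgeR (0 higher and 8 lower at an unadjusted p under 0.05, 0 higher and 7 lower in DESeq2). ND4, a subunit of complex I, was at 164, 213 and 165 CPM in COPD and 789, 463 and 479 CPM in NC, with an adjusted p of 0.0658. COX1, of complex IV, was at 11871, 5377 and 6089 CPM in COPD and 23026, 8034 and 10047 CPM in NC, with overlap. The median was -0.99 without NC replicate 1, the library with 10.3% mitochondrial counts. The 78 nuclear subunits of the respiratory chain had a median of -0.01, the 75 cytosolic ribosomal protein genes -0.01 and the 75 mitochondrial ribosomal protein genes 0.04, and none of these genes passed the adjusted p in edgeR. Counts among them were 0 higher and 1 lower at an unadjusted p under 0.05, 0 higher and 0 lower in DESeq2 for the respiratory chain, 1 higher and 0 lower at an unadjusted p under 0.05, 0 higher and 0 lower in DESeq2 for cytosolic ribosomes and 0 higher and 0 lower at an unadjusted p under 0.05, 0 higher and 0 lower in DESeq2 for mitochondrial ribosomes.

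Genes of airway secretory cells depended on the NC library. Scgb1a1, the secretoglobin of club cells, was at 6527, 2561 and 3905 CPM in the COPD lungs, against 18332, 10059 and 7385 CPM in the NC lungs. It was a lower DEG without overlap (adjusted p = 0.189). The mucin Muc5b was at 589, 433 and 1670.2 CPM in COPD and 1523, 266 and 120 CPM in NC, and Scgb3a1 was at 89.5, 116 and 378 CPM in COPD and 874, 64.4 and 11.5 CPM in NC, both with wide spread in both groups. None of 29 genes passed the adjusted p in edgeR (2 higher and 4 lower at an unadjusted p under 0.05, 1 higher and 3 lower in DESeq2). The list median was -0.40 and turned to 1.10 without NC replicate 1, where 11 genes were higher DEGs and 2 were lower DEGs. Motile cilia genes had 53 of 54 values below 0 with a median of -0.58, yet none was a DEG (0 higher and 0 lower at an unadjusted p under 0.05, 0 higher and 0 lower in DESeq2), and without NC replicate 1 the median was -0.10. Dnah5, an outer arm dynein, was at 378, 356 and 403 CPM in COPD and 908, 380.4 and 370.4 CPM in NC, where NC replicate 1 alone was high.

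Alveolar genes showed few calls. The 30 type 2 genes had a median of 0.56, and 0.39 without NC replicate 1. Of these, 13 had every COPD library above every NC library, as did 14.3% of all genes, and 2 had the reverse. In this list 4 genes were higher DEGs (8 without COPD replicate 2) and 1 was a lower DEG (2 without NC replicate 1). The surfactant protein gene Sftpa1 was at 2065, 1190 and 1701 CPM in COPD and 1294, 1196 and 887 CPM in NC, with overlap, and Sftpb was at 765, 685 and 572 CPM in COPD and 815, 1135 and 868 CPM in NC. Chil1 was the only gene of 30 in the type 2 list that rose, and Lyz2, made by type 2 cells and macrophages, was a DEG at 2052, 807 and 1667 CPM in COPD and 265, 656 and 589 CPM in NC. None of 25 type 1 genes was a DEG (1 higher and 1 lower at an unadjusted p under 0.05, 0 higher and 0 lower in DESeq2), although 2 were lower DEGs without NC replicate 1, and Ager was at 448, 479.8 and 290.1 CPM in COPD and 100.3, 549.6 and 391 CPM in NC. Slc26a4, the anion exchanger pendrin of airway epithelium, rose, at 27.5, 22.8 and 43.5 CPM in COPD and 0.176, 2.33 and 0.6795 CPM in NC, with a log2 fold change of 4.90 ± 0.97 (adjusted p = 0.0409). The sodium bicarbonate cotransporter Slc4a4 was a lower DEG at 22.3, 18.1 and 20.4 CPM in COPD and 50.2, 41.2 and 39.5 CPM in NC (adjusted p = 0.0663). Of 31 transport genes, Slc26a4 was the only gene past the adjusted p.

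In the stroma, Tgfbi, a matrix protein made by macrophages and fibroblasts, rose, at 389.5, 148 and 483 CPM in COPD and 27.5, 24.02 and 20.7 CPM in NC, with a log2 fold change of 3.82 ± 0.72 (adjusted p = 0.0366). Other fibroblast genes leaned lower, with 11 lower DEGs of 39 (7 without COPD replicate 2) and a median of -0.63, and -0.89 without NC replicate 1. Pi16, a marker of adventitial fibroblasts, was at 7.34, 5.79 and 5.64 CPM in COPD and 17.7, 18.7 and 12.7 CPM in NC, and Itga8, an integrin chain of fibroblasts, was at 54.6, 60.2 and 41.1 CPM in COPD and 79.4, 137 and 172 CPM in NC. Neither passed the adjusted p, at 0.0517 and 0.123. Col1a1, the main chain of type I collagen, was a higher DEG at 1548, 1032 and 1405 CPM in COPD and 329, 662 and 568 CPM in NC (adjusted p = 0.0732), while the 38 collagen genes together had a median of -0.05. Of 24 smooth muscle genes 7 were lower DEGs (4 without COPD replicate 2 and 1 without NC replicate 1), with a median of -0.73 and -0.42 without NC replicate 1, and Myh11, the smooth muscle myosin, was at 155, 124 and 136 CPM in COPD and 447, 286 and 219 CPM in NC. Heart muscle genes, whose RNA can come from tissue attached to the lung, had a median of -0.84 and varied widely within both groups. Endothelial genes were spread around 0.04, and -0.34 without NC replicate 1, with Vwf at 258, 255 and 194 CPM in COPD and 101, 357 and 256 CPM in NC. Their only gene that fell was Esm1, at 3.51, 2.86 and 2.66 CPM in COPD and 6.78, 10.8 and 9.41 CPM in NC.

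Apoptosis genes were moderate. Of 34 tested, 8 were higher DEGs and none passed the adjusted p in edgeR (14 higher and 0 lower at an unadjusted p under 0.05, 9 higher and 0 lower in DESeq2). Bak1, a pore-forming effector, was at 23.3, 12.9 and 24.9 CPM in COPD and 8.08, 7.31 and 8.58 CPM in NC, and Birc3, an inhibitor induced by NF-kappaB, was at 52.5, 44.3 and 71.6 CPM in COPD and 22.4, 25.02 and 27.04 CPM in NC. Both were DEGs without overlap.

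Transcript usage within genes was compared because the table lists transcripts. Of 9595 genes with at least 2 transcripts tested, 13 (0.135%) had usage that differed between COPD and NC at an adjusted p under 0.05, by the test of edgeR for differential splicing. Transcript counts are estimates, and a share of 0% can stand for a failed assignment. The adjusted p values below belong to the gene and not to a single transcript. Of the transcripts described, only Gbp6 NM_194336 passed the transcript-level test of edgeR (adjusted p = 0.00613). In that test the adjusted p was 0.259 for Nlrp3 NM_001359638, 0.207 for Itgam NM_008401 and 0.259 for Slc11a1 NM_013612. For Nlrp3 the transcript NM_001359638 took 79.2, 91.3 and 94.3% in COPD and 0, 0 and 0% in NC (estimated counts 590, 313 and 897 in COPD and 0, 0 and 0 in NC), and NM_145827 took 20.4, 8.75 and 4.52% in COPD and 100, 100 and 100% in NC. The groups were assigned almost opposite transcripts (adjusted p = 0.0361), and the NC counts of the gene were low, at 42, 191 and 103. Gbp6 transcript NM_194336 took 76.2, 55.7 and 85.9% in COPD and 0, 0 and 0% in NC (adjusted p = 0.00259). For Itgam, NM_008401 took 41.1, 67.9 and 46.97% in COPD and 0, 0 and 0% in NC (adjusted p = 0.0361), although NC libraries held 247 to 270 counts of NM_001082960. Slc11a1 transcript NM_013612 was at 0% in NC as well, with 73.2, 67.8 and 62.7% in COPD and 0, 0 and 0% in NC (adjusted p = 0.0368). The Psap transcript XM_017313848, of the lysosomal protein prosaposin, took 50.5, 1.76 and 46.1% in COPD and 2.52, 1.62 and 2.92% in NC. There COPD replicate 2 resembled NC and not the other COPD libraries. Cyp3a13 was assigned wholly to XM_030254121 in COPD and wholly to NM_007819 in NC (adjusted p = 0.0368). Cd72 had the smallest adjusted p of the gene-level test (3.80e-05). Its transcript XM_006537581 took 1.99, 5.57 and 6.42% in COPD and 80, 100 and 91.6% in NC, on estimated NC counts of 48, 115 and 109. The remaining genes were Myh14, Cacnb3, Uggt2, Ythdc1, Cerk and Rbms1. The number of genes ranged from 0 without NC replicate 3 to 66 without NC replicate 1. Of the 9 fits with a library left out, Cd72 passed the adjusted p in 6, Gbp6 and Itgam in 5 and Psap in 3. Myh14, Uggt2 and Ythdc1 passed in 2, Nlrp3, Cyp3a13, Cerk and Rbms1 in 1, and Slc11a1 and Cacnb3 in 0. With only the COPD and NC libraries, Cd72, Gbp6, Itgam, Cacnb3, Cerk and Ythdc1 passed. In that fit Nlrp3, Cyp3a13, Psap, Slc11a1, Myh14, Uggt2 and Rbms1 did not.

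**Figure D5:**
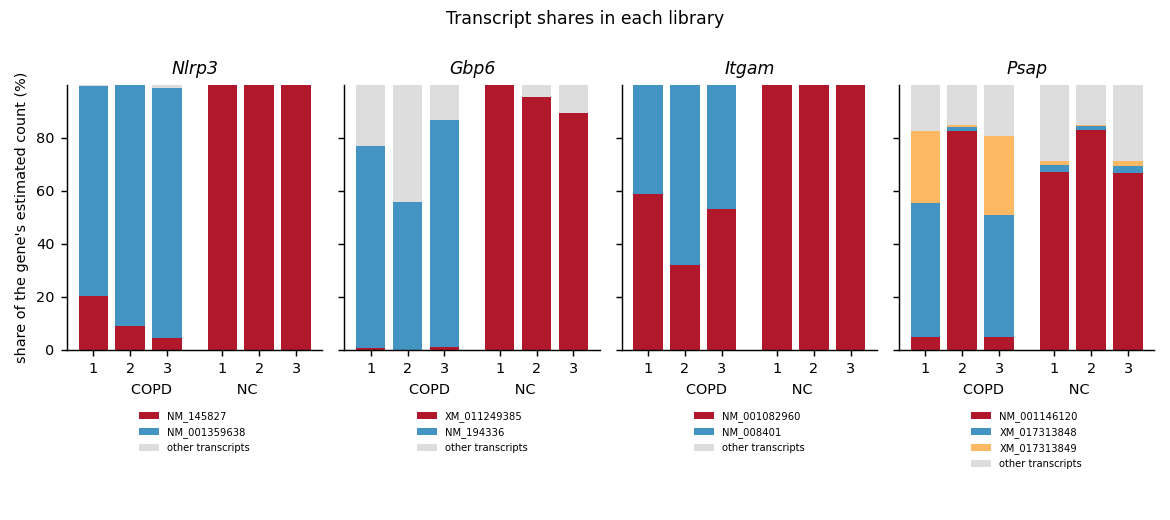
Share of each gene's estimated count (y axis, %) assigned to its main transcripts in each library, COPD replicates left and NC replicates right, for Nlrp3, Gbp6, Itgam and Psap. The transcript drawn in blue for Nlrp3, Gbp6 and Itgam is at 0% in all NC libraries, and for Psap the bar of COPD replicate 2 looks like those of NC.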

How the data were processed

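RNA of whole mouse lung was sequenced after depletion of ribosomal RNA, as named in the labels. According to the submitters' processing notes, reads were trimmed with Trimmomatic 0.38, aligned with HISAT2 2.1.0 to mm10 and quantified with StringTie 2.1.3b, whereas the methods of the study name HTSeq for counting. The strand setting is not given in the sources used here, so a gene and an antisense partner cannot be told apart. The deposited values used are the estimated counts per RefSeq transcript, which are whole numbers and were summed by gene ID. The FPKM and TPM columns beside them were not used, and the study gives no replicate block.

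Counts were tested in R 4.3.3 with edgeR 4.0.16 (limma 3.58.1) after filterByExpr and TMM scaling. All 9 libraries, 3 in each group, entered one quasi-likelihood fit with robust shrinkage, and COPD was set against NC. P values were adjusted by Benjamini-Hochberg over the genes tested. Transcript usage was tested with diffSpliceDGE of edgeR. With DESeq2 1.42.0 in place of edgeR, with other scaling, filters and sets of libraries, with the replicate number as a block and with each library left out in turn, the results were recomputed. On simulated counts for COPD against NC with 200 changed genes among 17978, 97 were called, of which 3 were false, and 70% of genes with a 4-fold rise and 12.5% of those with a doubling were recovered. In the simulation of isoform usage with the dispersion of these files, 1.09% of genes with a 16-fold shift were found, so most changes in usage could not be detected at this spread. With a dispersion of 0.1 for every transcript, the same test called 218 genes, of which 44 were false. That is more than an adjusted p under 0.05 allows, so calls of this test can hold an excess of false ones.

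The gene lists and the comparison were chosen with earlier results of these data known, and the lists are described by counts and medians without a test. Genes were named by a rule, namely per list up to 8 genes that passed the adjusted p, up to 4 DEGs and up to 3 of the highest level that were not called, together with the largest changes over all genes with a mean of at least 50 counts. The cell type markers, the genes in the isoform results, Ifit3 and the genes described as chosen after their values had been seen lie outside this rule. Promoter windows came from a RefSeq table of GRCm38.p6. Some genes are not reported here.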

Additional observations from a re-analysis of the deposited data

How the results depend on the processing

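All 299 genes that passed the adjusted p kept their direction in every setting, which their non-overlapping values all but fixed beforehand. The number of calls depended on the model. DESeq2 in place of edgeR called 1089 genes higher and 313 lower, including 296 of the 299, with 1523 DEGs higher and 684 lower. In a fit of only the COPD and NC libraries edgeR called 643 higher and 81 lower, with 7 genes for isoform usage, and DESeq2, an alternative chosen after seeing the data, called 1254 higher and 427 lower with 680 lower DEGs. Without the filter on low counts 19 genes were lower. Other scaling, a filter at 10 counts in 3 libraries and shrinkage that was not robust (chosen after seeing the data) moved no count of genes by more than 1.5 times. Across settings, the median over all genes on the log2 scale was between −0.06 and 0.01.

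Leaving out one library gave 0 to 847 genes higher, 0 to 149 lower, 1062 to 1436 DEGs higher, 343 to 625 DEGs lower and 0 to 66 genes for isoform usage. No gene passed the adjusted p when COPD replicate 3, NC replicate 1 or NC replicate 2 was left out (smallest adjusted p = 0.052, 0.057 and 0.0782 in edgeR), and 1 did without NC replicate 3 or COPD replicate 1. Without COPD replicate 2 the counts were 254 higher and 2 lower, and the highest counts came without replicate 2 of the extract group. The lower calls were 7 and 25 without replicates 1 and 3 of that group. For isoform usage, 1 gene was left without COPD replicate 1 or NC replicate 2, 2 without COPD replicate 3, and 7, 4 and 6 without replicates 1, 2 and 3 of the extract group. The cause was not tested.

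With the replicate number as a block, 0 genes were higher and 0 lower (smallest adjusted p = 0.075, with 2543 genes at an unadjusted p under 0.05), and 0 genes passed for isoform usage. The residuals of COPD and NC libraries of the same number correlated at 0.195, 0.111 and −0.195 over 14779 genes. Not every library correlated best with the one of its own number. Residuals within groups of so few libraries constrain each other, so these values cannot decide whether libraries of the same number belong together. Under the block H2-Ob, Scgb3a1 and Vwf, none of which passed the test, changed sign to 0.019, 0.20 and 0.035 on the log2 scale.

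Among the named genes that did not pass the test, the log2 fold change crossed 0 in leave-one-out fits for Ager (−0.21 to 0.72), Dnah5 (−0.77 to 0.016), H1f4 (−0.20 to 0.12), H2-Ob (−0.52 to 0.25), Il6st (−0.22 to 0.024), Lamp1 (−0.0025 to 0.37), Muc5b (−0.32 to 2.22), Ptgs2 (−0.76 to 0.063), Retnlg (−0.40 to 0.69), Scgb3a1 (−1.62 to 2.36), Sftpc (−0.037 to 0.61), Siglecf (−0.21 to 0.55) and Vwf (−0.38 to 0.39). For genes at 0 in all NC libraries the depth sets the bound given, and levels near 1 CPM rest on few counts. In the simulation with 3 libraries a group, 6.25% of genes with a 2-fold lower level were detected, against 54.8% of those at a 4-fold lower level.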
